A study of Mus musculus with 6 samples.

Results

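A panel of 39 interferon-stimulated genes was examined in RNA-seq libraries of mouse primary myoblasts, with 3 WT libraries and 3 libraries labelled eIF5A-KO. The genes were taken by symbol as named interferon targets, in a list drawn up with earlier results of these data known, and all 39 were found among the 54532 genes of the count table. Of these, 38 passed the expression filter that left 14679 genes for testing, and Mx1 did not. No gene of the panel passed a test of difference between the genotypes, and most of them varied together between libraries of the same genotype. Expression was lowest in eIF5A-KO replicate 1 and highest in eIF5A-KO replicate 3 for 24 of the 38 genes.

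Primary myoblasts, the proliferating progeny of muscle satellite cells, were isolated by enzymatic digestion of hind-limb muscle from mice 3 weeks old. They were grown with FGF at 10 µg per ml and collected at day 2 as proliferating cells. The knockout genotype was Pax7 CreERT2/+;eIF5A f/f on a C57BL/6j background, in which tamoxifen induces deletion of the floxed gene in cells that express Pax7, so that any other cell type in the culture keeps it. The controls were WT littermates. The study describes control mice both as Pax7 CreERT2/+ and as Pax7 +/+;eIF5A f/f, and which of these gave the WT libraries was not given in the sources used here, nor was the tamoxifen schedule of the mice. The labels do not say whether libraries of a genotype came from separate mice or cultures, so the p-values measure only the spread between these libraries, which may be technical. Libraries of one genotype differed by more than counting noise, with a chi-square per degree of freedom of 20.1 to 135 between pairs.

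Interferons are secreted cytokines that bind cell-surface receptors and activate the kinases Jak1, Jak2 and Tyk2, which phosphorylate STAT factors. Type I interferons act through a complex that holds Stat2 and Irf9 on the interferon-stimulated response element, and interferon gamma acts on GAS elements. The induced genes encode nucleic acid sensors, factors that block viral replication, and the ISG15 and GTPase systems, and many are also transcribed at a basal level in cells that have met no virus. eIF5A, the product of the gene targeted for deletion, is a translation factor that carries the modified residue hypusine.

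Total counts ranged from 16281216 to 17734551 per library. The mitochondrial share of counts was 5.75% in WT replicate 1 and between 2.11% and 3.50% elsewhere. The level of the targeted transcript did not separate the genotypes. Eif5a, on chromosome 11 from 69916714 to 69921958, was at 1600, 985 and 1237 CPM (counts relative to the TMM-adjusted library total) in the WT libraries and at 1363, 1457 and 1058 CPM in the libraries labelled eIF5A-KO. The groups overlapped, with a log2 fold change of 0.02 (95% interval -0.51 to 0.55, edgeR adjusted p = 0.993), so this transcript does not check the labels. The study measured eIF5A by RT-qPCR and immunostaining in satellite cells of knockout and WT mice, and concluded that the knockout was established. Those measurements were not of these libraries. Genes of myogenic cells were present, among them Myod1 at 195 to 549 CPM, Pax7 at 8.28 to 51.6 CPM and Myog at 2.09 to 76.2 CPM. The endothelial marker Cdh5, at 243 to 818 CPM, and the fibroblast marker Dcn, at 627 to 1540 CPM, were also high in each library.

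Promoters of the panel were searched for the core of the interferon-stimulated response element, written as GAAA, then 2 bases of any kind, then GAAA, and read on both strands. The windows ran from 250 bases before to 50 bases after the RefSeq gene starts of GRCm38.p6, and 30 of the 39 genes had an entry. Of these, 16 (53.3%) held a match, compared with 1079 (3.99%) of the 27025 genes with a promoter sequence. The letters TTCNNNGAA, a general form of the GAS element that reads the same on both strands, were in 8 of the 30 (26.7%) and in 9.55% of the 27025 genes. Both motifs were in 4 genes, with matches that shared bases in 1 of them, and 10 genes held neither. Matches from the IFIT and GTPase groups are shown because these groups had the highest median ratios between eIF5A-KO replicates 3 and 1, and that of Isg15 because it was among the most abundant members. Each line gives 30 bases in the orientation of the gene, 5′ to 3′, with one match in capitals. The stretches of Gbp3, Irgm1 and Isg15 also hold overlapping matches, which are left in lower case beyond the capitals. Where the match lies on the opposite strand it reads TTTC, 2 bases and TTTC.
Ifit1, chr19:34640794-34640823, plus strand: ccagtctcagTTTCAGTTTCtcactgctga
Ifit3, chr19:34583397-34583426, plus strand: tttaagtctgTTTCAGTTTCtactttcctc
Ifit3b, chr19:34607793-34607822, plus strand: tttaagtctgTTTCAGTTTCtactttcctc
Gbp2, chr3:142620594-142620623, plus strand: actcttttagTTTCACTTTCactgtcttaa
Gbp3, chr3:142559989-142560018, plus strand: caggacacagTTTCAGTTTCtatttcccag
Gbp7, chr3:142530273-142530302, plus strand: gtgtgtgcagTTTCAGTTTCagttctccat
Igtp, chr11:58199512-58199541, plus strand: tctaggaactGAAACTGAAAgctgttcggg
Irgm1, chr11:48871425-48871454, minus strand: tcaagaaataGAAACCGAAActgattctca
Isg15, chr4:156200871-156200900, minus strand: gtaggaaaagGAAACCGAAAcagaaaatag
The Ifit3 and Ifit3b stretches were identical. The neighbouring genes Ifit3 and Ifit3b are near copies, with 97.8% identity over 1700 aligned transcript bases, and how the counting divided reads between them was not given in the sources used here. A match to a motif describes the letters in the window and was not tested as a binding site.

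Most of the panel was readily measured in these cultures. The mean over 6 libraries was at least 10 FPKM, the authors' length-scaled level, for 26 of the 38 tested genes, and 30 lay above the median of all tested genes. The median of the panel was 13.0 FPKM, compared with 5.14 FPKM for all tested genes. Bst2, which encodes the virion tether tetherin, had the highest mean at 400.0 FPKM. The ubiquitin-like modifier gene Isg15 came next at 158 FPKM, followed by Ifit3 at 84.6 FPKM. At the other end were Oas3 at 0.503 FPKM and the untested Mx1, which had 3, 13 and 3 counts in WT and 4, 2 and 6 counts in eIF5A-KO. Counts of tested members ranged from 23 to 7681 in a library.

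**Figure D1:**
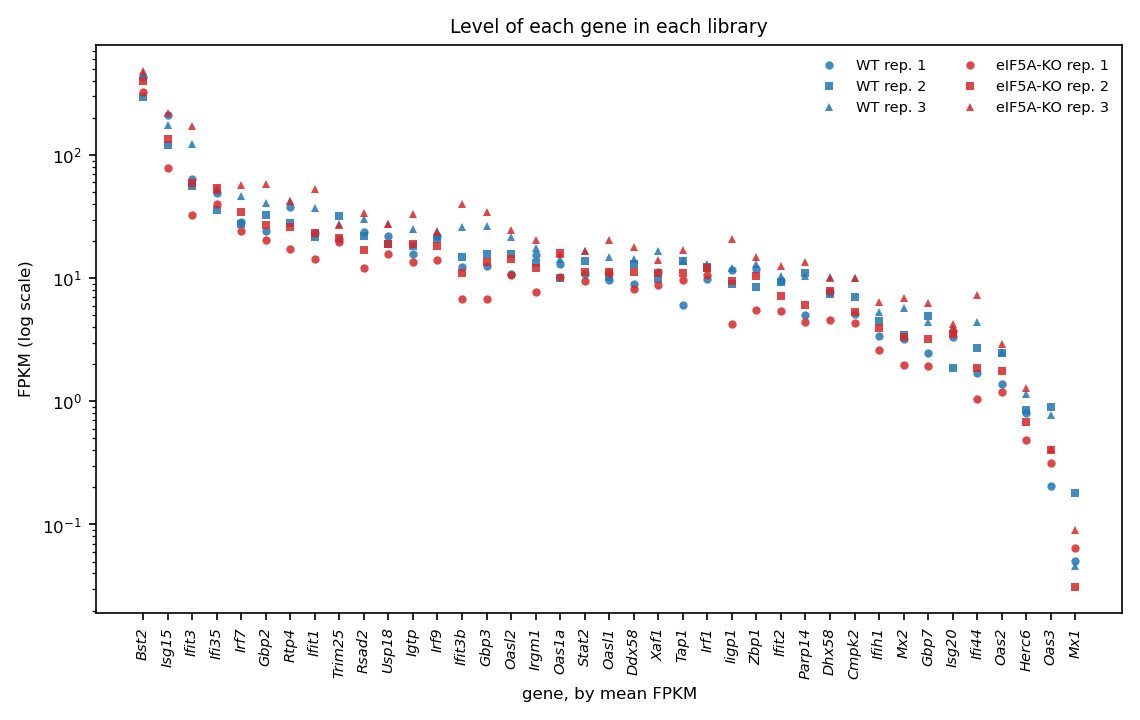
Level of each of the 39 genes in FPKM (log axis) in each library, ordered by the mean over 6 libraries, with WT libraries in blue, eIF5A-KO libraries in red and one marker shape per replicate number. Bst2, at a mean of 400.0 FPKM, and Mx1 mark the ends of the range, and for most genes the red symbols enclose the blue ones.

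The first comparison asked whether the genes differed between the libraries labelled eIF5A-KO and WT. None of the 38 genes passed an adjusted p under 0.05 in edgeR's quasi-likelihood test, where 3 of 14679 genes (0.0204%) did. None passed an unadjusted p under 0.05, compared with 6.76% of all tested genes (2.74% higher and 4.02% lower), and DESeq2 and limma called none by either measure. None passed a fold over 2 with an unadjusted p under 0.05, the kind of criterion used in the study, which 1.69% of all tested genes passed. The lowest p of the panel was 0.141 (adjusted p = 0.863) for Oas3. No gene had libraries of one genotype all above those of the other, which 12.5% of all tested genes had. The log2 fold change was above 0 for 16 genes and below 0 for 22, with a median of -0.03, compared with -0.01 over all tested genes, of which 48.3% lay above 0. In bulk RNA, fewer cells of a type and less RNA per cell cannot be told apart, and this holds for each level given here.

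The intervals set how large a difference these libraries could hold. For 27 of the 38 genes the 95% interval lay within a 2-fold change in either direction, as it did for 72.6% of all tested genes. It lay within a 1.5-fold change for 3 of the 38, compared with 27.2% of all tested genes. For the other 35 genes a 1.5-fold difference lay inside the interval or at its edge, so a difference of that size remained within what these libraries allow. The median standard deviation between replicates on the log2 scale was 0.349 in WT and 0.621 in eIF5A-KO, compared with 0.288 and 0.204 over all tested genes.

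**Figure D2:**
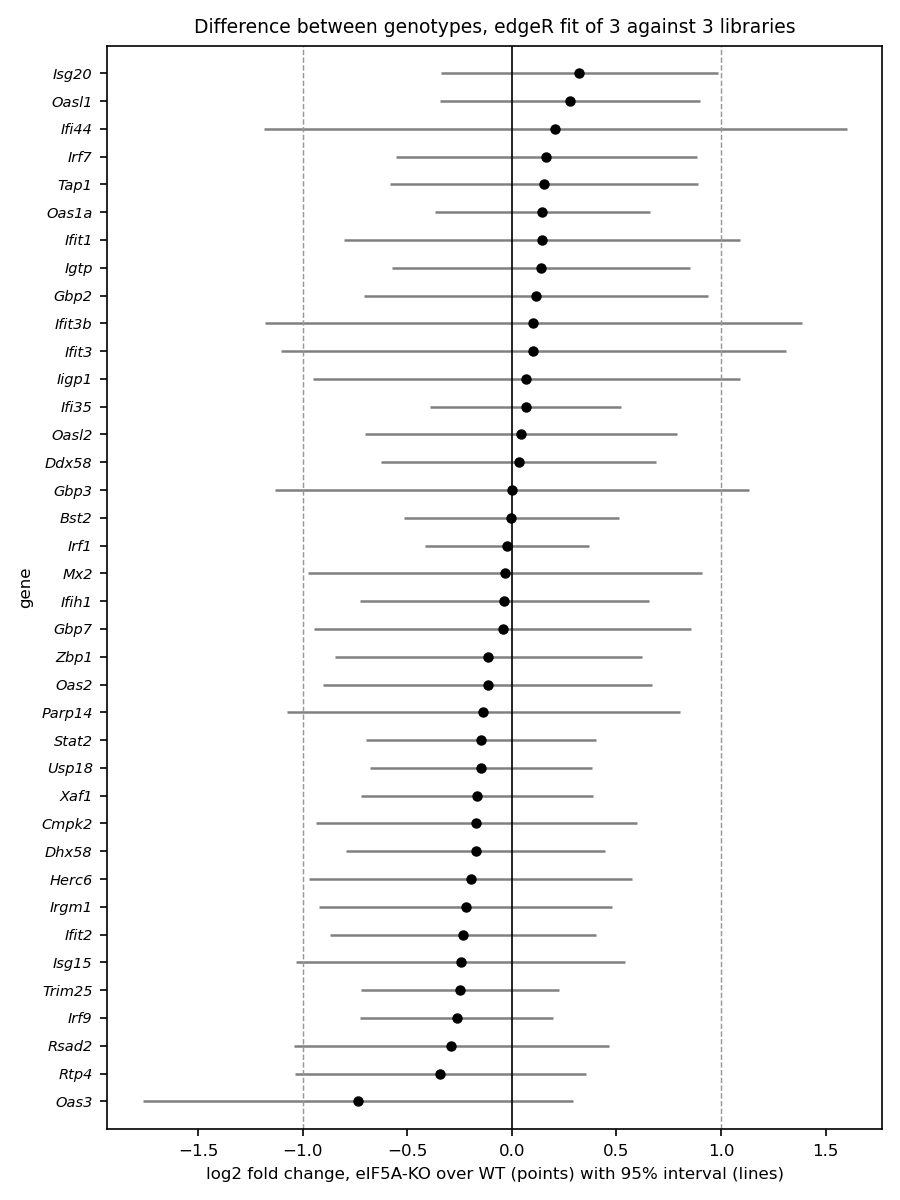
Log2 fold change of eIF5A-KO over WT for the 38 tested genes, as points with 95% intervals from the edgeR fit of 3 against 3 libraries, with dashed lines at a 2-fold change. Each interval crosses 0, and the points run from -0.74 for Oas3 to 0.32 for Isg20.

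Among the transcription factors, Irf7, which amplifies the type I response, had the highest level at 36.5 FPKM. Irf7 lies on chromosome 7 from 141262706 to 141266481. It was at 110, 105 and 177 CPM in WT replicates 1 to 3 and at 91.9, 132 and 217 CPM in eIF5A-KO replicates 1 to 3. The groups overlapped, with the replicates numbered 3 highest in each genotype and the lowest value in eIF5A-KO replicate 1. Means were 131 ± 40.0 CPM in WT and 147 ± 64.0 CPM in eIF5A-KO (SD, n = 3 each), with a log2 fold change of 0.17 (95% interval -0.56 to 0.89, edgeR adjusted p = 0.967). Stat2 and Irf9, which act together in the type I response, ranged from 57.1 to 100.0 CPM and from 77.0 to 131 CPM, both lowest in eIF5A-KO replicate 1. Irf1, which is induced by interferon gamma, varied least of this group, from 39.7 to 52.5 CPM.

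The sensors detect foreign or misplaced nucleic acid. Ddx58 encodes the RNA helicase RIG-I and lies on chromosome 4 from 40203773 to 40239828. It was at 64.0, 92.4 and 101 CPM in WT and at 57.7, 79.2 and 126 CPM in eIF5A-KO. Its highest and lowest values were both in eIF5A-KO libraries, and the log2 fold change was 0.03 (95% interval -0.62 to 0.69, edgeR adjusted p = 0.991). Ifih1, which encodes the helicase MDA5, ranged from 21.6 to 52.2 CPM. Dhx58, which encodes the regulator LGP2, ranged from 15.2 to 33.5 CPM, and the Z-form nucleic acid sensor Zbp1 ranged from 19.7 to 53.0 CPM. All 4 sensors were lowest in eIF5A-KO replicate 1, and 3 were highest in eIF5A-KO replicate 3.

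The IFIT family includes Ifit1, which binds viral RNA that lacks host cap modifications. Ifit3, on chromosome 19 from 34583531 to 34588731, was at 114, 98.1 and 218 CPM in WT and at 57.9, 103 and 301 CPM in eIF5A-KO. Replicate 3 was the highest of each genotype, and eIF5A-KO replicate 3 was 5.20-fold above eIF5A-KO replicate 1. Means were 143 ± 65.2 CPM and 154 ± 129 CPM (SD, n = 3 each), and the log2 fold change was 0.10 (95% interval -1.10 to 1.31, edgeR adjusted p = 0.986). Its near copy Ifit3b was at 25.2, 29.9 and 52.7 CPM in WT and at 13.6, 22.0 and 80.2 CPM in eIF5A-KO. The order of its libraries within eIF5A-KO was that of Ifit3, with a log2 fold change of 0.10 over WT (95% interval -1.18 to 1.39, edgeR adjusted p = 0.988). Ifit1 ranged from 38.6 to 141 CPM and Ifit2 from 21.4 to 49.7 CPM. All 4 IFIT genes were highest in eIF5A-KO replicate 3 and lowest in eIF5A-KO replicate 1.

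**Figure D3:**
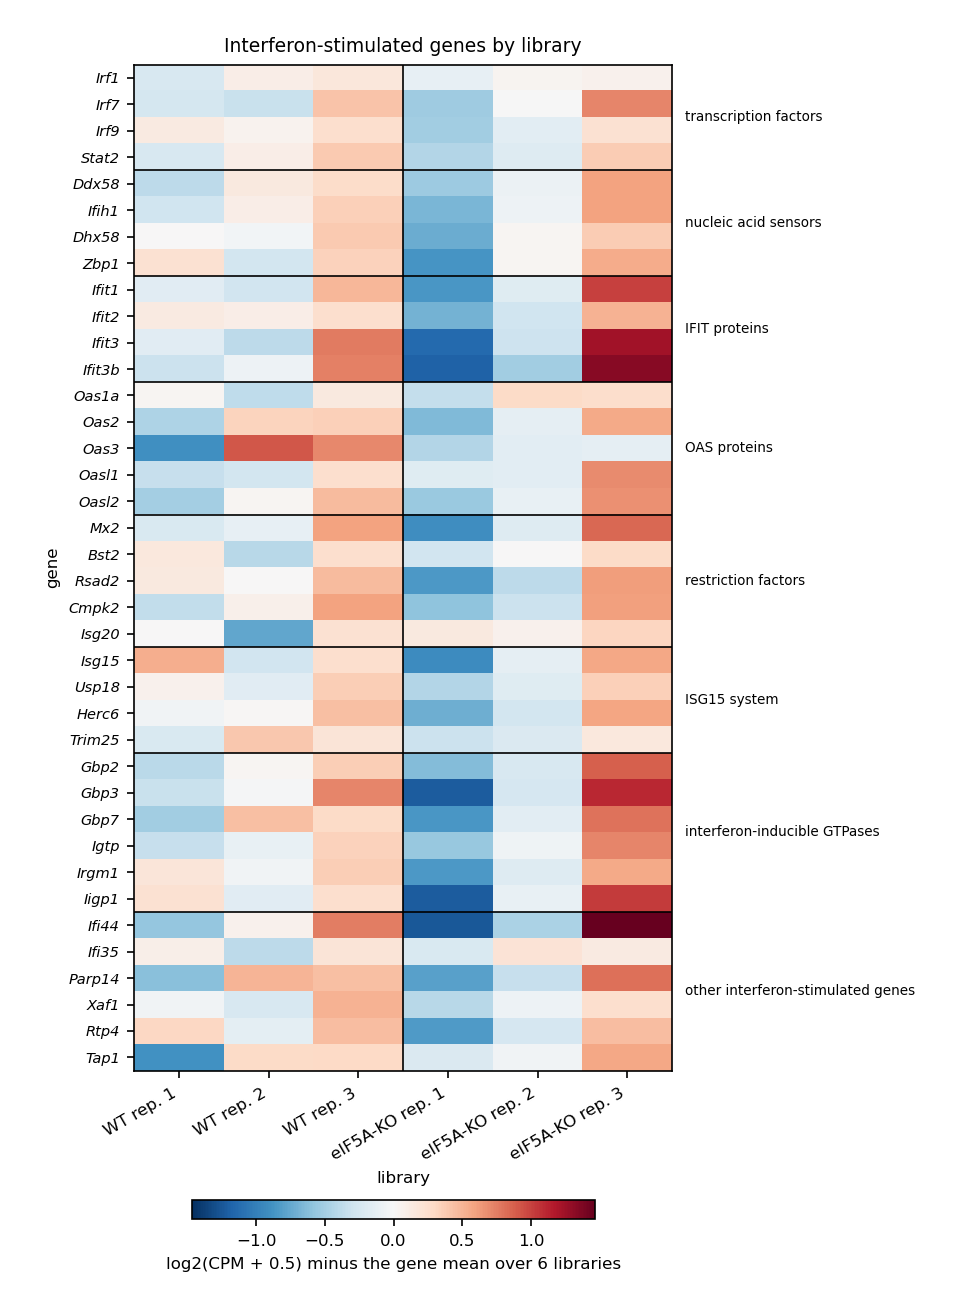
Values of the 38 tested genes in each library as log2(CPM + 0.5) minus the gene's mean over the 6 libraries, grouped by role, with red above and blue below the mean. The column of eIF5A-KO replicate 1 is mostly blue, those of WT replicate 3 and eIF5A-KO replicate 3 are mostly red, and the median deviations are -0.64, 0.36 and 0.57.

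OAS proteins make oligoadenylates that activate RNase L, and the OAS-like proteins regulate the antiviral response by other routes. Oasl2, on chromosome 5 from 114896936 to 114912234, was the most abundant at 16.3 FPKM. It was at 70.2, 101 and 138 CPM in WT and at 68.0, 91.8 and 158 CPM in eIF5A-KO. The ranges of the genotypes were nearly alike, and the log2 fold change was 0.04 (95% interval -0.70 to 0.79, edgeR adjusted p = 0.991). Its neighbour Oasl1, which represses translation of Irf7, was at 25.8, 27.0 and 38.9 CPM in WT and at 29.0, 29.4 and 53.0 CPM in eIF5A-KO, with a log2 fold change of 0.28 (95% interval -0.34 to 0.90, edgeR adjusted p = 0.923). Oas3, on chromosome 5 from 120753098 to 120777661, had the lowest fold change of the panel. It was at 1.48, 6.46 and 5.54 CPM in WT and at 2.26, 2.84 and 2.89 CPM in eIF5A-KO. The 3 eIF5A-KO values lay inside the WT range, with the lowest value of all in WT replicate 1, and the log2 fold change was -0.74 (95% interval -1.77 to 0.29, edgeR adjusted p = 0.863). With a library left out, the log2 fold change of Oas3 ran from -1.13 without WT replicate 1 (unadjusted p = 0.00182 and adjusted p = 0.144 in edgeR) to -0.39 without WT replicate 2 (edgeR adjusted p = 0.811). A stretch of up to 349 bases of its transcript has at least 90% identity with many other genes, so part of its low count is uncertain. Oas1a, which shares 97.5% identity over 1860 bases with Oas1g, ranged from 19.1 to 30.2 CPM, and Oas2 from 5.38 to 13.0 CPM.

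Restriction factors act on the virus itself. Bst2, on chromosome 8 from 71534255 to 71537456, was at 398, 270 and 424 CPM in WT and at 296, 360 and 435 CPM in eIF5A-KO. Its means were equal within rounding, 364 ± 82.1 CPM in WT and 364 ± 69.6 CPM in eIF5A-KO (SD, n = 3 each), and the 95% interval of the log2 fold change ran from -0.51 to 0.51. Rsad2 encodes viperin, an enzyme that makes a chain-terminating nucleotide. It was at 105, 95.6 and 132 CPM in WT and at 52.9, 73.2 and 146 CPM in eIF5A-KO, so that the WT values lay inside the eIF5A-KO range, with a log2 fold change of -0.29 (95% interval -1.04 to 0.47, edgeR adjusted p = 0.940). The nucleotide kinase gene Cmpk2, the neighbour of Rsad2, ranged from 18.3 to 42.3 CPM. The exonuclease gene Isg20 had the highest fold change of the panel and was at 6.33, 3.50 and 7.43 CPM in WT and at 7.03, 6.62 and 7.98 CPM in eIF5A-KO. Its groups overlapped, with a log2 fold change of 0.32 (95% interval -0.34 to 0.99, edgeR adjusted p = 0.917). Of the dynamin-like Mx genes, which share 94.7% identity over 924 bases, Mx2 ranged from 7.15 to 25.2 CPM. All 5 tested factors were highest in eIF5A-KO replicate 3.

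Isg15 is conjugated to proteins much as ubiquitin is, and its transcript has 95.2% identity over 482 bases with the annotated copy AC151275.1. It lies on chromosome 4 from 156199424 to 156200818 and was at 164, 93.0 and 135 CPM in WT and at 59.4, 103 and 167 CPM in eIF5A-KO. The lowest and the highest value were both in eIF5A-KO libraries, and the highest lay close to that of WT replicate 1. Means were 130.4 ± 35.5 CPM and 110.1 ± 54.3 CPM (SD, n = 3 each), with a log2 fold change of -0.24 (95% interval -1.03 to 0.54, edgeR adjusted p = 0.949). Usp18, the protease that removes Isg15 and also dampens receptor signalling, ranged from 44.7 to 77.3 CPM. Herc6, the mouse ligase for Isg15, ranged from 4.58 to 11.9 CPM. Trim25, a ubiquitin ligase that acts on RIG-I, ranged from 113 to 185 CPM. All 4 genes of the group had a log2 fold change below 0, from -0.25 to -0.15, and all 4 were lowest in eIF5A-KO replicate 1.

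The interferon-inducible GTPases act on membranes that enclose intracellular pathogens. Gbp2, a guanylate-binding protein gene on chromosome 3 from 142620602 to 142638008, was at 61.4, 82.5 and 104 CPM in WT and at 52.0, 68.6 and 148 CPM in eIF5A-KO. The WT values lay inside the eIF5A-KO range, and the log2 fold change was 0.12 (95% interval -0.71 to 0.94, edgeR adjusted p = 0.977). Gbp3 ranged from 22.3 to 114 CPM and Gbp7 from 11.0 to 35.5 CPM. Of the immunity-related GTPases, Irgm1 ranged from 44.9 to 119 CPM, Igtp from 27.5 to 66.9 CPM and Iigp1 from 13.4 to 65.3 CPM. All 6 genes were highest in eIF5A-KO replicate 3 and lowest in eIF5A-KO replicate 1. Igtp overlaps Irgm2 on the same strand over 7974 bases, and reads there could be divided between them.

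Of the remaining genes, Ifi35, which binds the transcriptional regulator Nmi, had the highest level at 47.3 FPKM. It was at 86.0, 62.4 and 92.7 CPM in WT and at 69.7, 93.1 and 89.4 CPM in eIF5A-KO. Its libraries did not follow the order of the panel, and the log2 fold change was 0.07 (95% interval -0.39 to 0.52, edgeR adjusted p = 0.976). Ifi44, on chromosome 3 from 151730922 to 151749960, had the widest spread of the tested genes and was the one tested gene whose highest library exceeded 3 times its median. It was at 10.6, 16.7 and 27.1 CPM in WT and at 6.48, 11.4 and 45.0 CPM in eIF5A-KO, a 6.95-fold difference between eIF5A-KO replicates 1 and 3. Its log2 fold change was 0.21 (95% interval -1.19 to 1.60, edgeR adjusted p = 0.976). Rtp4, which encodes a receptor transporter protein, was at 82.4, 60.1 and 91.2 CPM in WT and at 37.2, 55.9 and 91.3 CPM in eIF5A-KO, with a log2 fold change of -0.34 (95% interval -1.04 to 0.35, edgeR adjusted p = 0.916). The ADP-ribosyltransferase gene Parp14 ranged from 41.6 to 127 CPM, the apoptosis regulator Xaf1 from 41.7 to 79.2 CPM and the peptide transporter subunit Tap1 from 33.7 to 93.2 CPM. Of the 39 genes, 11 overlap an annotated gene on the opposite strand (Irf1, Irf7, Dhx58, Oas2, Oasl1, Usp18, Herc6, Gbp2, Ifi35, Rtp4 and Tap1), and the library kit named in the methods does not mark strand. Irf9 overlaps Rnf31 on the same strand over 123 bases.

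The differences between libraries of one genotype were larger than the fold changes between the genotypes. This order was seen after the values were known and is given as a description. All 38 tested genes were higher in eIF5A-KO replicate 3 than in eIF5A-KO replicate 1, as 49.2% of all tested genes were, with a median ratio of 2.34 compared with 0.994. The ratio was over 2 for 25 of the 38 (65.8%), compared with 3.70% of all tested genes, and over 3 for 9 (23.7%), compared with 1.26%. eIF5A-KO replicate 3 was the highest of the 6 libraries for 28 genes (13.1% of all tested genes), and eIF5A-KO replicate 1 was the lowest for 30 (18.5% of all). Both held for 24 of the 38 (63.2%) and for 3.26% of all tested genes. The WT libraries varied in part in the same way, since WT replicate 3 and eIF5A-KO replicate 3 were the highest pair for 30 genes (78.9%), compared with 4.67% of all. The standard deviation was larger in eIF5A-KO than in WT for 30 genes (78.9%), compared with 35.5% of all.

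Most roles overlapped in the size of this difference, and their medians are given as a description. The range of the GTPases, however, lay above those of the OAS group and the transcription factors. The median ratio of eIF5A-KO replicate 3 to replicate 1 was 4.33 for the IFIT genes, with a range of 2.32 to 5.91, and 2.98 for the GTPases, with a range of 2.43 to 5.10. It was 2.28 for the sensors, 2.28 for the restriction factors, 2.05 for the ISG15 system and 2.05 for the remaining genes. It was 1.82 for the OAS group, with a range of 1.28 to 2.42, and 1.70 for the transcription factors, with a range of 1.14 to 2.36. For the 16 genes with the response element match the median log2 difference was 1.43, and for the 14 without it 0.82. The 354 other tested genes with the match had a median log2 difference of 0.03, and 16 of them (4.52%) were highest in eIF5A-KO replicate 3 and lowest in replicate 1, compared with 2.92% of the 10186 without it.

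Summed over the panel, the level was 2354, 2347 and 3200 CPM in WT and 1663, 2258 and 3719 CPM in eIF5A-KO. The WT values lay inside the eIF5A-KO range, and the means were 2634 ± 491 CPM and 2547 ± 1058 CPM (SD, n = 3 each), a ratio of 0.967. The direction of the panel therefore depended on which library was included. Without eIF5A-KO replicate 3, 35 of the 38 genes lay below 0 and the median log2 fold change was -0.47. Of these, 7 had an unadjusted p under 0.05, all lower (Irf9, Rsad2, Irgm1, Rtp4, Ifit3b, Ifit2 and Ifi44), compared with 7.12% of all genes tested in that fit, and 3.48% that were lower. The lowest adjusted p of the 7 was 0.655. Without eIF5A-KO replicate 1, 32 genes lay above 0, the median was 0.19 and none passed an unadjusted p under 0.05, compared with 3.88% of all. Without WT replicate 3 the median was 0.12, and none passed (5.28% of all). Without WT replicate 1 the median was -0.16, and only Oas3 passed (10.2% of all). None passed without WT replicate 2 (8.82% of all) or without eIF5A-KO replicate 2 (4.81% of all).

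**Figure D4:**
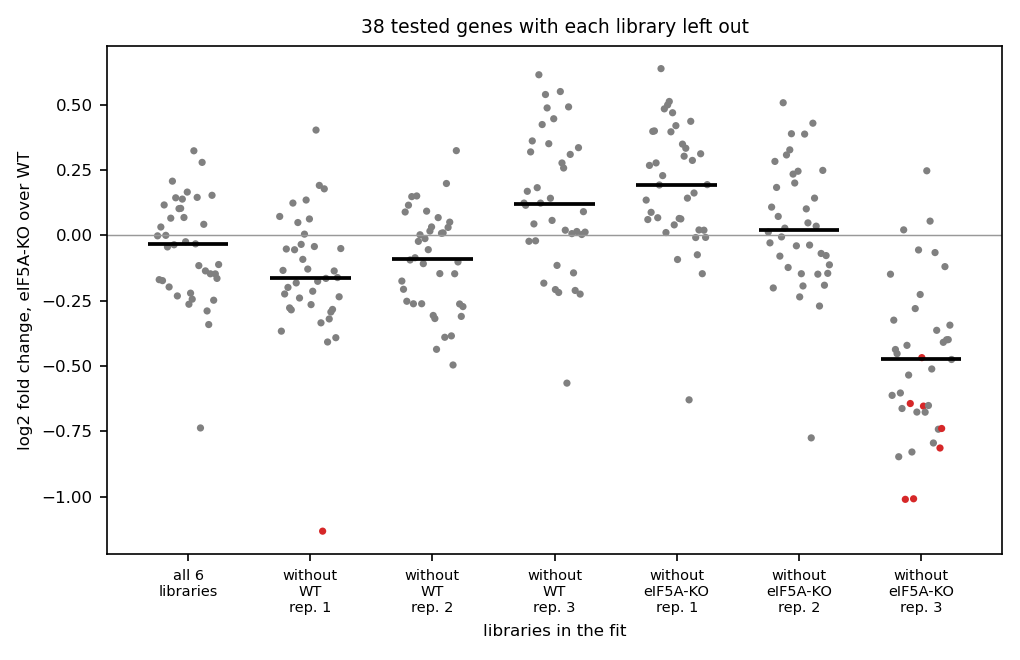
Log2 fold change of eIF5A-KO over WT for each of the 38 tested genes with all 6 libraries and with each library left out, with a black bar at the median and red points for an unadjusted p under 0.05. The median is -0.03 with all libraries, -0.47 without eIF5A-KO replicate 3 and 0.19 without eIF5A-KO replicate 1.

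The genes that act before and beside the panel were read from lists of 132 genes, of which 102 were tested. None passed an adjusted p under 0.05, and 2 passed an unadjusted p under 0.05, one in each direction, compared with 6.76% of all tested genes (2.74% higher and 4.02% lower). Interferon ligands were at or near the limit of counting. Of 21 ligand genes, 15 had no count in any library, and the 6 libraries together held 28 ligand counts, with at most 5 for one gene in one library. Ifnb1 had 2 counts in eIF5A-KO replicate 2 and none elsewhere, and Ifng had 5 counts in WT replicate 2 and at most 1 in the others. A count of 0 allows up to 3 counts, or 0.159 to 0.194 CPM, so that ligand transcription below this level was not detectable.

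Transcripts of the 5 tested receptor genes and of the kinases were present in each library. Ifnar1, a subunit of the type I receptor, was at 84.3, 93.6 and 77.1 CPM in WT and at 66.0, 82.2 and 89.3 CPM in eIF5A-KO. Its partner Ifnar2 was at 41.6, 49.1 and 42.6 CPM in WT and at 48.6, 47.5 and 54.6 CPM in eIF5A-KO. The 5 tested receptor genes, which include Ifngr1, Ifngr2 and Il10rb, had 95% intervals within a 1.5-fold change and a median ratio of eIF5A-KO replicate 3 to replicate 1 of 1.12. Ifnlr1, of the type III receptor, had 0 to 4 counts in a library and was not tested. The kinase gene Jak1 was at 278, 300.1 and 267 CPM in WT and at 239, 291 and 316 CPM in eIF5A-KO, and its groups overlapped. Jak2 ranged from 61.3 to 98.2 CPM and, like Jak1, was highest in eIF5A-KO replicate 3. Tyk2 ranged from 20.3 to 30.7 CPM and Stat3 from 183 to 301 CPM, both highest in WT replicate 2. The median ratio was 0.896 for 5 other IRF factors, 1.12 for 12 genes of the induction pathway and 1.02 for 10 negative regulators.

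A list of further interferon-stimulated genes varied between libraries as the panel did. Of its 52 tested genes, 23 (44.2%) were highest in eIF5A-KO replicate 3 and lowest in replicate 1, and 28 (53.8%) were over 2-fold higher in replicate 3. Their median log2 fold change between genotypes was 0.06, with 31 above 0. The 2 genes with an unadjusted p under 0.05 were on this list. Ifitm2, which limits viral entry, was at 147, 121 and 171 CPM in WT and at 238, 218 and 173 CPM in eIF5A-KO, with a log2 fold change of 0.52 (edgeR adjusted p = 0.640). Its groups did not overlap, and it did not follow the order of the panel within eIF5A-KO. Slfn9, of the Schlafen family, was at 45.9, 48.3 and 47.4 CPM in WT and at 23.5, 38.5 and 33.9 CPM in eIF5A-KO, with a log2 fold change of -0.56 (edgeR adjusted p = 0.609), and its groups did not overlap. With a library left out, both kept their direction, and some fits no longer passed. Ifitm2 had log2 fold changes of 0.40 without WT replicate 2, 0.42 without eIF5A-KO replicate 1 and 0.50 without eIF5A-KO replicate 2, with an unadjusted edgeR p of 0.0758, 0.101 and 0.0822. Slfn9 had log2 fold changes of -0.56 without WT replicate 3 and -0.37 without eIF5A-KO replicate 1, with an unadjusted edgeR p of 0.0575 and 0.0895. Of 13 antigen presentation genes, 8 were highest in eIF5A-KO replicate 3 and 4 were lowest in replicate 1, with a median ratio of 1.41.

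**Figure D5:**
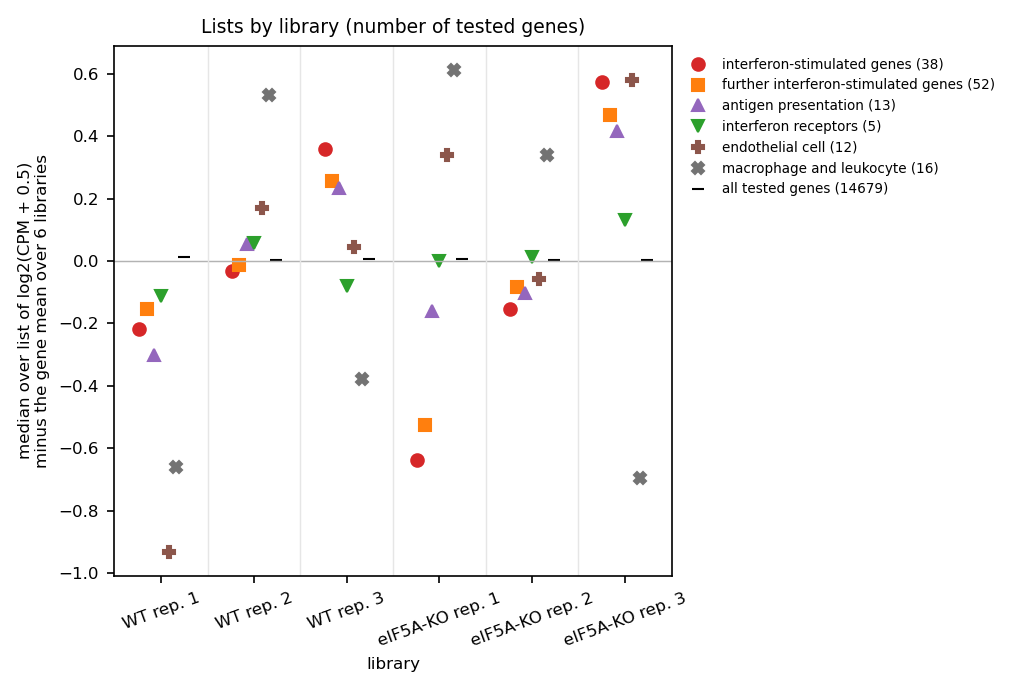
Median over each list of log2(CPM + 0.5) minus the gene's mean over 6 libraries, by library, with the number of tested genes in the legend. The panel and the further interferon-stimulated genes lie at -0.64 and -0.53 in eIF5A-KO replicate 1 and at 0.57 and 0.47 in eIF5A-KO replicate 3, while the receptors stay near 0. The macrophage and leukocyte markers run the other way from the panel except in WT replicate 1, where both lie below 0.

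Markers of other cell types were read in the same libraries. Summed macrophage and leukocyte markers (16 of 19 tested) were at 80.0, 187 and 88.4 CPM in WT and at 215, 168 and 80.4 CPM in eIF5A-KO. They were therefore lowest in the libraries where the panel was high and in WT replicate 1, and Ptprc had at most 48 counts in a library. Of 6 plasmacytoid dendritic cell markers, Siglech and Ly6d had no count in any library, and the sum ranged from 3.17 to 5.91 CPM. Cox6a2, at 2.15 to 4.52 CPM, was the largest part of this sum in each library. Endothelial markers (12 of 12 tested) were at 1802, 3618 and 3371 CPM in WT and at 4162, 3303 and 4784 CPM in eIF5A-KO, highest in eIF5A-KO replicate 3 and second highest in replicate 1. All 12 had a log2 fold change above 0. At an unadjusted p under 0.05, 2 were higher in eIF5A-KO, compared with 2.74% of all tested genes. Mural cell markers (9 of 9 tested) were at 425, 780.4 and 613 CPM in WT and at 873, 816 and 939 CPM in eIF5A-KO, so that the genotypes did not overlap. Of these, 4 were higher in eIF5A-KO at an unadjusted p under 0.05 (2.74% of all tested genes), and Myh11, a smooth muscle myosin gene, was among the 3 genes with an adjusted p under 0.05 in edgeR. It was at 10.5, 11.0 and 10.5 CPM in WT and at 29.2, 28.3 and 34.2 CPM in eIF5A-KO (edgeR adjusted p = 0.0486). This call depended on the settings, since no gene passed an adjusted p under 0.05 with DESeq2 size factors, library size alone or limma-voom. Fibroblast markers (11 of 12 tested) ranged from 1846 CPM in eIF5A-KO replicate 3 to 2772 CPM in WT replicate 1. Myogenic markers (10 of 10 tested) were at 786, 1962 and 1370 CPM in WT and at 1254, 914 and 710 CPM in eIF5A-KO, lowest in eIF5A-KO replicate 3. At an unadjusted p under 0.05, 4 of the 10 were lower in eIF5A-KO (Pax7, Myog, Met and Chrna1), compared with 4.02% of all tested genes. The part of these differences in cell makeup in the levels of the panel was not tested.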

How the data were processed

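RNA was measured in 6 libraries, 3 per genotype. The authors mapped reads to mm10 with HISAT and deposited raw counts per gene and a second table of FPKM values. The methods name DEGSeq2 for the per-gene reads, and the annotation and the handling of reads that map to several places were not given in the sources used here. Gene coordinates accompany the deposited counts and equalled GENCODE M21 (GRCm38) for 38 of the 39 members.

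Counts were tested with edgeR 4.0.16 in R 4.3.3: filterByExpr, TMM factors, a prior count of 2, the two-sided quasi-likelihood F test and Benjamini-Hochberg adjustment over 14679 genes, with no covariate. The threshold was an adjusted p under 0.05, and the count at an unadjusted p under 0.05 was given beside it. The common biological coefficient of variation was 0.239. Log2 levels used log2(CPM + 0.5). Alternatives were other scaling factors, other filters, DESeq2 1.42.0, limma 3.58.1 (voom, or on log2(FPKM + 1) and log2(FPKM + 0.1)), a replicate block and each library left out. Near copies were searched with blastn 2.17.0 at a minimum of 200 aligned bases and 90% identity. RefSeq promoters gave sequences for 30 of 39 members.

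The members and lists were chosen with earlier results of these data known. Values in every library are given for the member with the highest FPKM of each of 8 roles, for members whose highest library exceeds 3 times their median and is at least 1 CPM, and for members past an unadjusted p under 0.05 or with no overlap, of which there were none. Among pathway genes, those past an unadjusted p under 0.05 were named. Values of Ifit3b, Oas3, Oasl1, Rsad2, Isg20 and Rtp4 were added after they were seen. Counting limits cover counting error only. One gene of the pathway lists is not reported here.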

Additional observations from a re-analysis of the deposited data

How the results depend on the processing

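No member passed an adjusted p under 0.05 with any of the 17 alternatives. Members with an unadjusted p under 0.05 numbered 0 with the reported settings, 1 with no filter (Oas3) and 0 to 7 with a library left out. Over all genes, 3 had an adjusted p under 0.05, compared with 249 with no filter, 88 in DESeq2, 24 with the replicate block, 0 to 56 with a library left out (56 without WT replicate 1), and 0 with DESeq2 size factors, library size alone, at least 10 counts in every library, limma-voom or limma on FPKM; the fits of this last group had 907 to 992 genes with an unadjusted p under 0.05. Genes past a fold of 2 with an unadjusted p under 0.05 numbered 248, compared with 638 with no filter, 149 with at least 10 counts, 59 with limma on log2(FPKM + 1) and 282 to 450 with a library left out. Pathway genes with an unadjusted p under 0.05 numbered 2, compared with 5 with no filter and 1 to 7 with a library left out. The median log2 fold change of members ran from -0.47 to 0.19 with a library left out, and from -0.17 to -0.02 under the other alternatives; 16 of 38 members lay above 0 as reported, and 10 in limma-voom, in limma on FPKM and with the replicate block.

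The log2 fold changes of several members changed sign, both near 0 and further from it, among them Oasl1 (0.28 as reported) and Isg15 (-0.24 as reported). Bst2 was at 0.0016 with DESeq2 size factors and in DESeq2, 0.0049 with mitochondrial and the 10 most abundant genes left out of the scaling, 0.0093 with no filter, 0.004 in limma-voom, and 0.0147 and 0.0148 in limma on log2(FPKM + 1) and log2(FPKM + 0.1). In limma-voom and these FPKM fits, in this order, Ddx58 was at -0.0169, -0.0053 and -0.0088, Ifi44 at -0.1703, -0.0513 and -0.151, Ifit3 at -0.1463, -0.1343 and -0.1392, and Ifit3b at -0.2387, -0.2019 and -0.2319. With a library left out, the ranges were -0.1748 to 0.135 for Bst2, -0.3243 to 0.2676 for Ddx58, -0.4525 to 0.3978 for Gbp2, -0.0856 to 0.1927 for Ifi35, -1.0097 to 0.6378 for Ifi44, -0.8286 to 0.5387 for Ifit3, -1.0076 to 0.5122 for Ifit3b, -0.2262 to 0.446 for Irf7, -0.6763 to 0.0629 for Isg15, -0.0658 to 0.4914 for Oasl1 and -0.3632 to 0.3096 for Oasl2. The cause was not tested.

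Over all tested genes, same-numbered libraries showed no clear pairing, with correlations of deviations of 0.084, -0.160 and 0.105. In the panel, however, WT replicate 3 and eIF5A-KO replicate 3 were the highest pair for 30 genes (78.9%, compared with 4.67% of all). Whether same-numbered libraries were handled together was not given in the sources used here. With the replicate block, Bst2 was at 0.0076, Ddx58 at -0.0162, Ifi44 at -0.156, Ifit3 at -0.1394 and Ifit3b at -0.2321, and no member passed an unadjusted p under 0.05.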
